A study of Mus musculus with 15 samples.

Results

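Interferon-stimulated genes (ISGs) were examined in the lungs of SCR-treated, PT-bearing and control mice, as 46 genes taken by name from the deposited table of read counts, which lists 46603 genes. All 46 had enough reads to be tested, among 15870 genes tested in all. They comprised 11 Ifit, Oas and Mx genes, 9 other effectors of the type I response, 6 sensors of foreign nucleic acid, 3 transcription factors, 12 interferon-inducible GTPases, 3 genes of antigen processing and 2 chemokines that bind the receptor Cxcr3. All mice were athymic Swiss nude animals (Foxn1nu/nu), male or female and 8 to 12 weeks old, so that every group lacked a thymus and, with it, most T cells. SCR-treated mice (n = 6) were injected intraperitoneally each day for 1 week with 25 µL of secretome, the concentrated culture supernatant of 143B, a human osteosarcoma cell line. PT-bearing mice (n = 5) carried a subcutaneous tumour in the lower flank from 500000 injected 143B Luc+ cells, and their lungs were taken at a tumour volume of 50 to 60 mm3, after about 8 to 10 days. For the control mice (CTR, n = 4) the labels list no treatment, and the methods mention a vehicle. Each lung was 1 library, and lungs are named here by group and number.

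Interferons are cytokines of antiviral and antibacterial defence. Type I interferons signal through Ifnar1 and Ifnar2 to a complex that holds Stat2 and Irf9 and binds the interferon-stimulated response element of genes such as Ifit1, Oas2 and Mx1, whereas interferon gamma, made mainly by NK and T cells, signals through Ifngr1 and Ifngr2 to genes with a gamma-activated site. Guanylate-binding proteins and immunity-related GTPases, the antigen-processing genes and the chemokines Cxcl9 and Cxcl10 respond strongly to interferon gamma, and many genes respond to both kinds of interferon.

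Sequencing depth, as the total count of a lung, was 14167644 to 22109856 in CTR, 13078095 to 18621680 in SCR and 12767431 to 17386086 in PT. The lung identity of the tissue was clear from Sftpc, the surfactant gene of alveolar type 2 cells, at 10900 to 32900 CPM (read counts scaled to a common library size by the TMM method), and from Cdh5 of endothelial cells at 522 to 1400 CPM. By Xist and Y-linked transcripts, 0 of 4 CTR, 2 of 6 SCR (lungs 4 and 6) and 2 of 5 PT lungs (3 and 5) came from females, and SCR lungs 5 and 6 and PT lung 6 also held low levels of transcripts of the other sex. SCR lungs 1 to 3 formed a set of their own, with a summed level of 9 glucocorticoid-response genes of 1310 to 1730 CPM against 492 to 855 elsewhere, and of 6 B cell markers of 27.4 to 60.5 CPM against 146 to 415. The RNA was from whole lung, so that fewer cells of a type and less RNA per cell cannot be told apart.

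ISG levels varied widely between lungs of the same group. The SD within groups, on the log2 CPM scale, had a median of 0.70 over the 46 genes and 0.31 over all genes tested, and the largest class medians were those of the 2 chemokines (1.38) and the GTPases (0.97). The spread was not shared by all classes, and different lungs led different classes. SCR lung 2 held the highest level of 12 of 12 GTPases, against 4.51% of all genes tested, but of 3 of the other 34 ISGs. PT lung 5 held the highest level of 14 of these 34, against 5.94% of all genes, and SCR lung 1 the lowest level of 20 of the 46, against 15.6% of all genes. Per base of gene length, the most abundant ISGs were Ifi27l2a, Bst2, Igtp and Gbp2, with means over the 15 lungs of 107, 91.5, 85.7 and 83.0 RPKM (CPM per kilobase of gene length). Gbp6 was the lowest at 0.561 RPKM, and 1 of the 2 entries under its name had no read in any lung. The annotated spans of these entries overlap on the same strand (105214907 to 105293695 and 105270702 to 105293698 of chromosome 5). How reads were shared between them, and with it this rank, is uncertain.

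**Figure D1:**
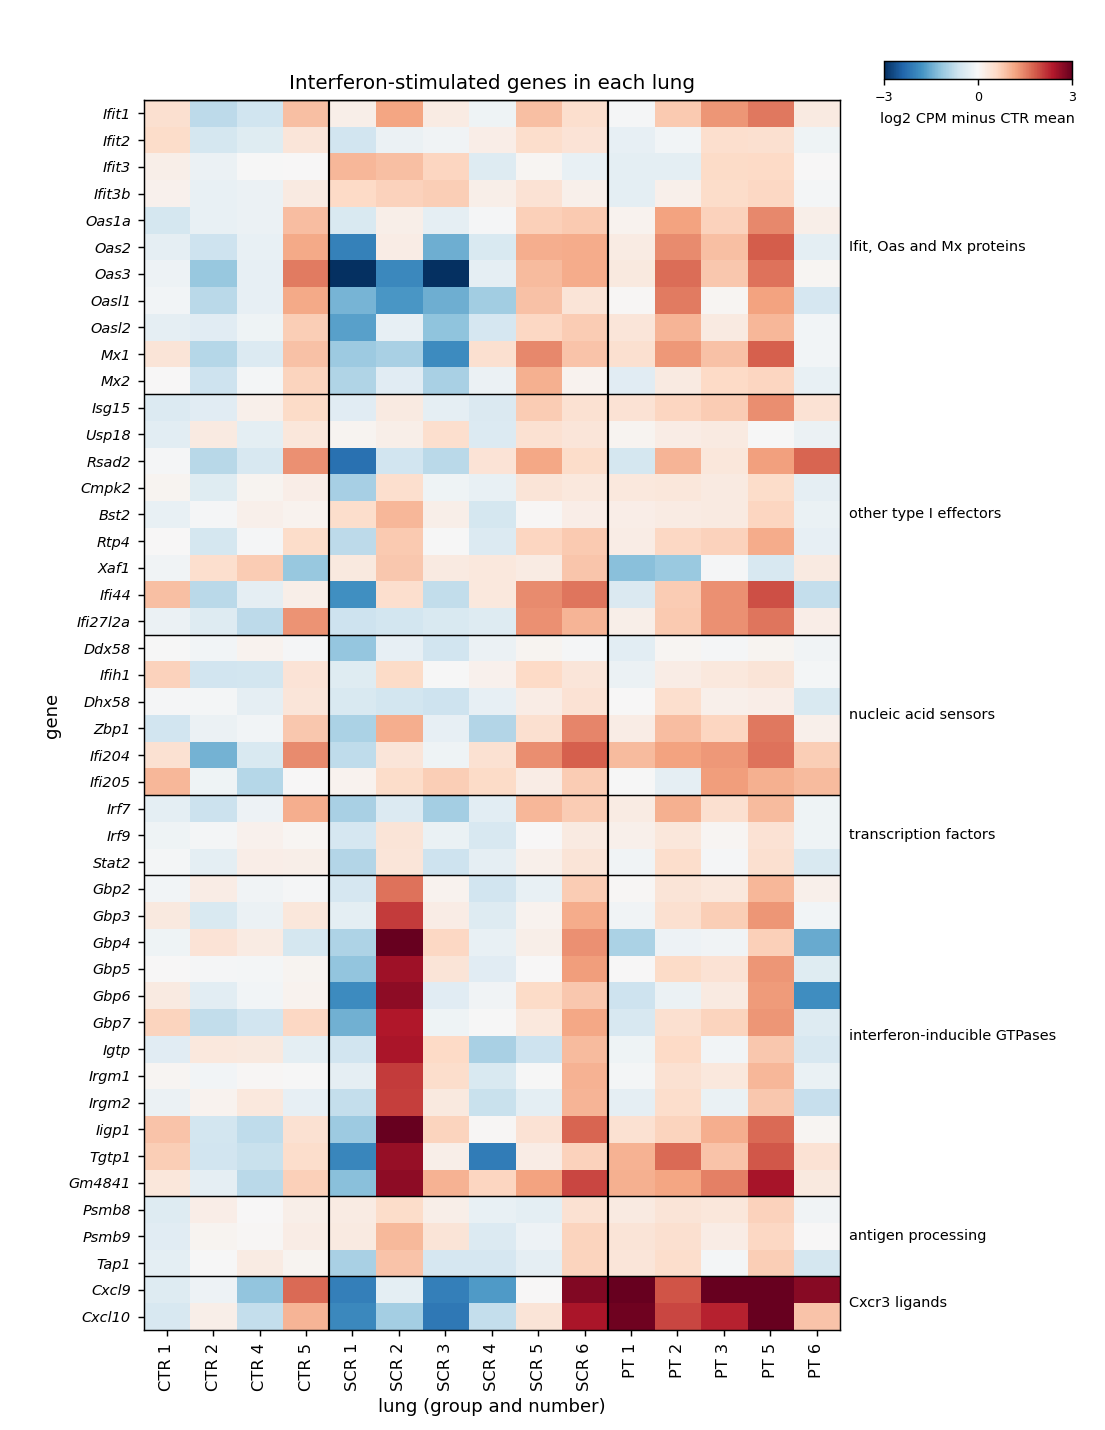
Level of each of the 46 genes in each of the 15 lungs, coloured by log2 CPM minus the mean log2 CPM of the 4 CTR lungs (scale from -3 to 3, with values beyond drawn at the end colours); lungs are columns and genes are rows, grouped by class. The GTPase block is darkest in SCR lung 2, where the 12 genes lie 1.62 to 3.17 above the CTR mean, and the chemokine rows are dark in the PT lungs and in SCR lung 6.

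The first question was what a week of the secretome does to ISGs. In SCR against CTR, 0 of 46 passed edgeR's quasi-likelihood test (adjusted p under 0.05, Benjamini-Hochberg), where 0.113% of all genes passed. DESeq2, the likelihood ratio test and limma also passed 0 of 46, where they passed 3.64%, 2.19% and 0.0124% of all genes they adjusted for. With edgeR, at an unadjusted p under 0.05, 2 were higher (Ifit3b and Gm4841) and 0 lower, which as shares is below the 8.58% of all genes that were higher and the 10.2% that were lower. DESeq2, the likelihood ratio test and limma put 3, 4 and 2 of the 46 at this level, beside 12.5%, 18.2% and 17.6% of all genes. The median log2 fold change was 0.27 against 0.01 over all genes, with 35 of 46 above 0. In none of the 46 did the SCR and CTR lungs separate without overlap, as they did upwards for 1.49% and downwards for 2.52% of all genes.

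The second question was what a distant tumour does. In PT against CTR, 0 of 46 passed edgeR's adjusted quasi-likelihood test, where 0% of all genes passed. With DESeq2, the likelihood ratio test and limma 0 of 46 passed as well, where 0.0921%, 0.0693% and 0.0186% of all genes did. With edgeR, at an unadjusted p under 0.05, 4 were higher (Cxcl9, Cxcl10, Isg15 and Gm4841) and 0 lower, and these shares stood beside 2.93% of all genes higher and 4.73% lower. Each of the other 3 tests also put 4 of the 46 at this level, beside 5.5%, 7.45% and 9.01% of all genes. The median log2 fold change was 0.41 against 0.01 over all genes, and 43 of 46 lay above 0. Cxcl9 alone had every PT lung above every CTR lung, as did 1.51% of all genes, and no ISG had every PT lung below, as did 1.87%.

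Set against each other, PT and SCR lungs again gave 0 of 46 past edgeR's adjusted quasi-likelihood test, where 0.0378% of all genes passed. The other 3 tests passed 0 of 46 too, where DESeq2 passed 1.43% of all genes, the likelihood ratio test 1.15% and limma 0.0434%. With edgeR, at an unadjusted p under 0.05, 3 were higher in PT (Cxcl9, Cxcl10 and Isg15) and 2 lower (Xaf1 and Gbp4), with 6.19% of all genes higher and 5.6% lower. DESeq2 and the likelihood ratio test put 6 and limma 7 at this level, beside 8.35%, 11.9% and 14.1% of all genes. The median log2 fold change was 0.22 against -0.01 over all genes, with 28 of 46 above 0, and the groups of no ISG separated, as they did for 0.895% of all genes upwards and 0.775% downwards. The SCR and PT comparisons with CTR share the control lungs and are not independent. Without SCR lung 6, Cxcl9 and Cxcl10 passed the adjusted test of PT against SCR (adjusted p = 0.0178 for each, edgeR), where 0.607% of all genes passed. SCR lung 6 held the highest SCR levels of both genes (16.8 and 10.7 CPM). The pass therefore rests on leaving out the lung that these same values single out, and is not an independent test. With SCR lungs 1 to 3 left out, only Tgtp1 (higher) and Xaf1 (lower) of the 46 were at an unadjusted p under 0.05, where 5.28% of all genes were higher and 4.09% lower.

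**Figure D2:**
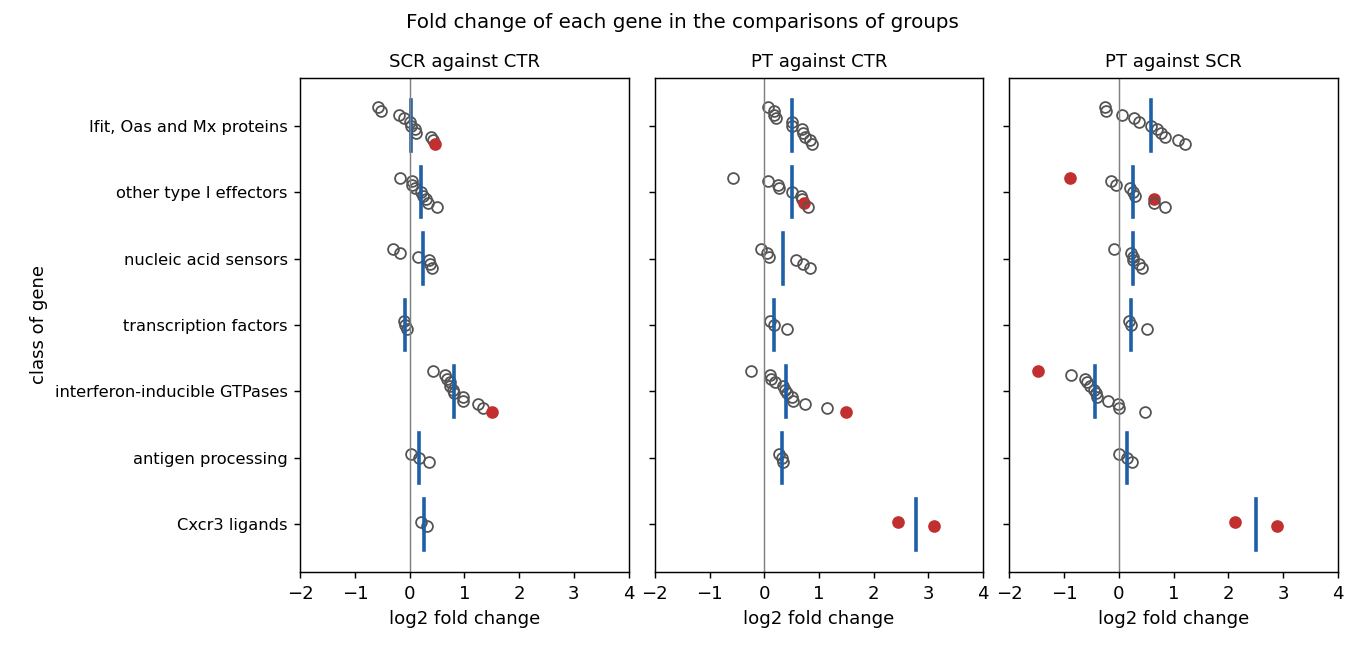
Log2 fold change of each ISG (points, 1 per gene) for SCR over CTR, PT over CTR and PT over SCR, by class, with the class median as a blue bar; filled red points have an unadjusted p under 0.05 in edgeR's quasi-likelihood test, and none passes the adjusted test. The GTPase median is 0.80, 0.39 and -0.44 in these comparisons, and that of the Ifit, Oas and Mx genes 0.02, 0.51 and 0.59.

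Cxcl9 and Cxcl10, which attract Cxcr3-bearing NK and T cells, were the ISGs with the largest difference between PT lungs and the other lungs. The genes lie next to each other on the minus strand of chromosome 5, Cxcl9 at chr5:92321347-92328079 and Cxcl10 at chr5:92346638-92348889 (GRCm38). Their upstream sequences are shown because both genes differed most between groups and only 1 of them matched a motif. The 250 bases before each RefSeq start (GRCm38.p6, chr5:92328080-92328329 and chr5:92348890-92349139, both minus strand) are printed 5′ to 3′, with capitals for GAAANNGAAA, the core of the interferon-stimulated response element, which here begins 213 bases before the start of Cxcl10.
Cxcl9: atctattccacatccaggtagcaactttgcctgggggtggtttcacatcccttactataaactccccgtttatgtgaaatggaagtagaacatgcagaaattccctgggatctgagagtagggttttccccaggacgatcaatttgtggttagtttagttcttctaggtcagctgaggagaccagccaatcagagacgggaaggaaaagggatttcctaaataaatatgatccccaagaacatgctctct
Cxcl10: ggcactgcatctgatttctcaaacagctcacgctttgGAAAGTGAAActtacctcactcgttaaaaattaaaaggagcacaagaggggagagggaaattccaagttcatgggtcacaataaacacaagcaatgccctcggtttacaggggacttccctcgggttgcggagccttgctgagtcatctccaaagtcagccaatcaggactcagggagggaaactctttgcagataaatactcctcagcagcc

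Cxcl9 stood at 1.76, 2.09, 0.967 and 7.91 CPM in CTR lungs 1, 2, 4 and 5. In the SCR lungs its lowest, median and highest levels were 0.466, 1.27 and 16.8 CPM, and in PT lungs 1, 2, 3, 5 and 6 it reached 27.6, 8.96, 24.4, 61.4 and 16.3 CPM. No CTR lung reached the lowest PT lung, and PT and SCR overlapped only through SCR lung 6. The level was 8.58-fold higher in PT than in CTR (log2 fold change 3.1 ± 1.01 SE, adjusted p = 0.536, edgeR quasi-likelihood test) and 7.41-fold higher than in SCR (2.89 ± 0.86, adjusted p = 0.21). Neither passed the adjusted test. Few reads lay behind the low values, with 6 reads of Cxcl9 in each of SCR lungs 1 and 3 and 836 in PT lung 5.

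Cxcl10 measured 1.27, 2.09, 1.06 and 3.89 CPM in the CTR lungs. In SCR the lowest, median and highest levels were 0.315, 0.949 and 10.7 CPM, and the PT lungs had 14.8, 7.71, 9.53, 21.2 and 3.42 CPM. PT lung 6 lay below CTR lung 5, and the other PT lungs above all CTR lungs. The PT level was 5.41-fold that of CTR (log2 fold change 2.44 ± 0.86, adjusted p = 0.573, edgeR) and 4.35-fold that of SCR (2.12 ± 0.74, adjusted p = 0.282). In SCR against CTR the log2 fold changes were 0.21 ± 0.94 for Cxcl9 and 0.32 ± 0.82 for Cxcl10, and without SCR lung 6 the median of both turned to -1.24. With sex as a term in the fit, the PT against CTR values were 2.20 (adjusted p = 0.702) and 1.75 (adjusted p = 0.715, both edgeR), each with an unadjusted p still under 0.05. With SCR lungs 1 to 3 left out, the PT against SCR values were 2.08 (adjusted p = 0.542) and 1.26 (adjusted p = 0.597), and neither had an unadjusted p under 0.05.

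**Figure D3:**
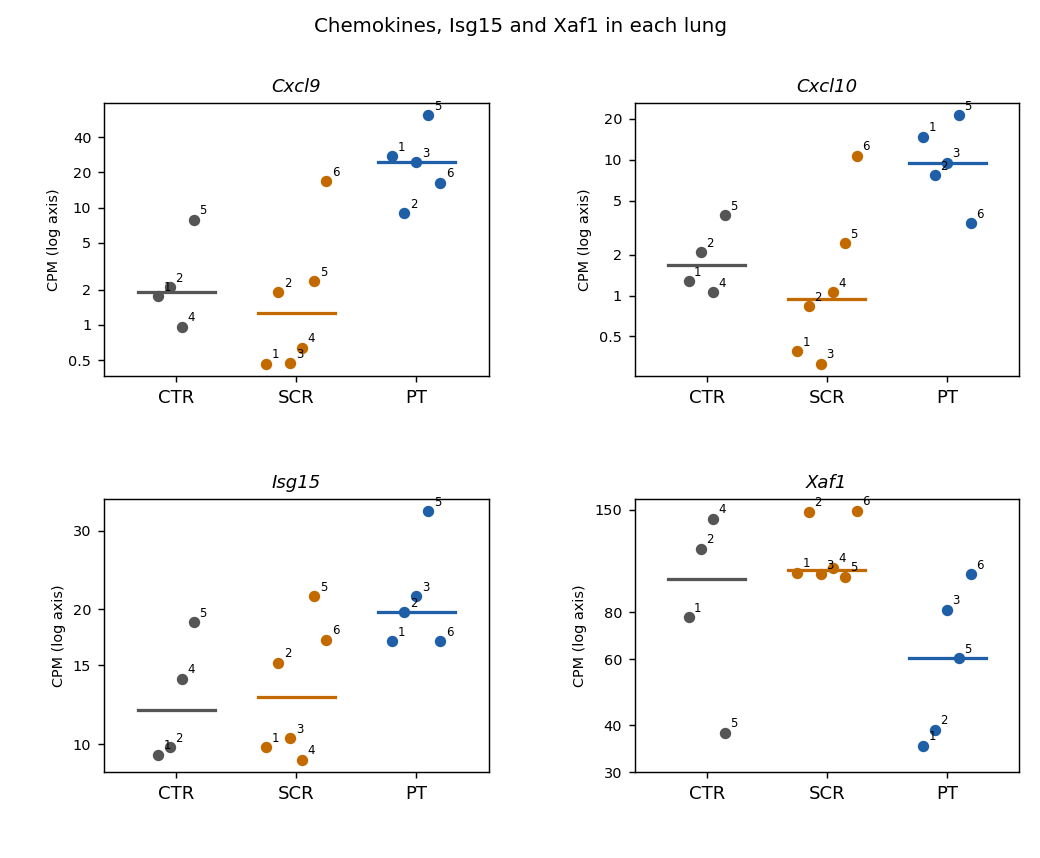
CPM of Cxcl9, Cxcl10, Isg15 and Xaf1 in each lung (points, numbered by lung; log axis) in the 4 CTR, 6 SCR and 5 PT lungs, with the group median as a bar. All PT lungs lie above all CTR lungs for Cxcl9, SCR lung 6 lies apart from the other SCR lungs for both chemokines, and PT lungs 1 and 2 and CTR lung 5 have the lowest levels of Xaf1, at 35.3, 38.9 and 38.2 CPM.

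Markers of other immune cells were measured beside the chemokines. Of 8 NK cell markers, 7 were tested, and in PT against CTR the log2 fold change of all 7 was above 0 (median 0.66), 2 of them at an unadjusted p under 0.05. Their summed level was 104 to 164 CPM in CTR, 81.2 to 201 in SCR and 135 to 272 in PT, and the untested Klra8 was at 0 in CTR lung 5, SCR lung 1 and PT lung 1. All 8 neutrophil markers had log2 fold changes above 0 (median 1.14, 4 at an unadjusted p under 0.05), with sums of 244 to 1060, 162 to 1500 and 942 to 1720 CPM. T cell transcripts were low, with sums of 9.83 to 45.9, 8 to 59.8 and 24.5 to 51.0 CPM, and Cd3e, a subunit of the T cell receptor complex, was at 0 in SCR lung 3. The highest T cell sum was in SCR lung 6, the only SCR lung in which both chemokines were above all CTR lungs. The NK cell sum of SCR lung 6, 201 CPM, was the highest in SCR. In PT lungs 1, 2, 3, 5 and 6 the T cell sums were 24.5, 51.0, 28.2, 47.8 and 24.6 CPM. The NK cell sums of these PT lungs were 161, 217, 200, 272 and 135 CPM. Cxcl9 was at 27.6, 8.96, 24.4, 61.4 and 16.3 CPM in the same order. Of 5 interstitial macrophage markers, 4 had log2 fold changes above 0 in PT against CTR (median over the 5 of 0.91), all 4 at an unadjusted p under 0.05, and their sum was 195 to 207 CPM in CTR, 159 to 226 in SCR and 200 to 388 in PT. C1qb, a subunit of complement C1q, was highest in PT lung 5 at 79.4 CPM, the lung with the most Cxcl9. Conventional and plasmacytoid dendritic cell markers each had 5 of 6 log2 fold changes above 0 (medians 0.45 and 0.71), with 1 and 2 at an unadjusted p under 0.05. The conventional sums were 123 to 141, 84.1 to 124 and 136 to 176 CPM in CTR, SCR and PT, and the plasmacytoid sums 132 to 256, 122 to 253 and 179 to 205 CPM. Of 6 classical monocyte markers all 6 lay above 0 (median 0.61, 1 at this level), with sums of 873 to 1260, 776 to 1920 and 861 to 1630 CPM. The largest part of each sum was Chil3 (416 to 1800 CPM), which is also on the alveolar macrophage list, so the sums largely follow this gene. Non-classical monocyte markers had 4 of 6 above 0 (median 0.20, 0 higher and 1 lower at this level), with sums of 1470 to 1970, 1010 to 1560 and 1170 to 1380 CPM. Here the largest part of each sum was Ace, at 857 to 1720 CPM, so these sums largely follow Ace. Alveolar macrophage markers had 4 of 6 above 0 (median 0.05, 1 at this level), and B cell markers 5 of 6 (median 0.24, 0 at this level). Over all genes tested in PT against CTR, 2.93% were higher and 4.73% lower at this level. The part of these cells in the chemokine result was not tested.

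The interferon-inducible GTPases act against pathogens inside vacuoles, the guanylate-binding proteins (Gbp2 to Gbp7) by coating and breaking the vacuole and the immunity-related GTPases (Igtp, Irgm1, Irgm2, Iigp1, Tgtp1) by targeting it or regulating the other members. Of the 12, 8 had an upstream window, and all 8 matched GAAANNGAAA and 5 of 8 also TTCNNNGAA, the core of the gamma-activated site. Igtp (chr11:58199306-58199555), Irgm2 (chr11:58214727-58214976) and Gbp7 (chr3:142530086-142530335), all on the plus strand of GRCm38.p6, are shown as examples of windows with both motifs. Capitals mark TTCNNNGAA and GAAANNGAAA or its reverse complement, and in Igtp, Irgm2 and Tgtp1 the first of these ends 2 bases before the second begins.
Igtp: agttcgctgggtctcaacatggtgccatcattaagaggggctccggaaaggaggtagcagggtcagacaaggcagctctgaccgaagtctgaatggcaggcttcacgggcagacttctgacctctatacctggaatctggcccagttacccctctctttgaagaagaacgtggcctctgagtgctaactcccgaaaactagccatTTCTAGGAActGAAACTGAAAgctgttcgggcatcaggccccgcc
Irgm2: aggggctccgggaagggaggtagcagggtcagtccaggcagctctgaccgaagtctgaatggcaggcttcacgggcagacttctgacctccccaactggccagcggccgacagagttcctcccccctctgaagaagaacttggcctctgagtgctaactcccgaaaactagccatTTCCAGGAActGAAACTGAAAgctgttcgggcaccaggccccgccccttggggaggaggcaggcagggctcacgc
Gbp7: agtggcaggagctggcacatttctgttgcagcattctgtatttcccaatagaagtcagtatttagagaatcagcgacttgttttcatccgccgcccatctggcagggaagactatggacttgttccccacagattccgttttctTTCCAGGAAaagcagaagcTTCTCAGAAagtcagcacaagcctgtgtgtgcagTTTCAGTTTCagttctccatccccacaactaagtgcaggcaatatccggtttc

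Gbp4 had 169, 243, 217 and 127 CPM in the CTR lungs. The lowest, median and highest SCR levels were 96.0, 245 and 1450 CPM, and the PT lungs had 95.5, 165, 171, 301 and 64.3 CPM. SCR lung 2 was the highest by a wide margin, SCR lung 6 came next at 474 CPM, and all groups overlapped. In PT against SCR the log2 fold change was -1.48 ± 0.60 (adjusted p = 0.356, edgeR), and without SCR lung 2 it was -0.61 (adjusted p = 0.724). In SCR against CTR it was 1.24 ± 0.65 (adjusted p = 0.313).

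Igtp, the most abundant GTPase per length, followed the same lungs. It measured 99.6, 157, 154 and 103 CPM in CTR, a lowest, median and highest of 64.2, 137 and 690 CPM in SCR, and 115, 190, 119, 221 and 89.9 CPM in PT. The highest level was again that of SCR lung 2, while the other SCR lungs spanned the range of CTR and PT. Its log2 fold change was 0.81 ± 0.56 in SCR against CTR (adjusted p = 0.451, edgeR). The annotated spans of Igtp and Irgm2 overlap on the same strand (58199556 to 58207591 and 58199618 to 58222779 of chromosome 11), so reads could be split between them.

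Gm4841, a predicted GTPase gene on chromosome 18, was a low transcript with 3 to 98 reads per lung. It was at 0.971, 0.596, 0.368 and 1.31 CPM in CTR, at 0.233, 1.76 and 5.47 CPM as the lowest, median and highest in SCR, and at 1.69, 1.85, 2.35, 4.70 and 0.934 CPM in PT. Of the PT lungs, 4 lay above all CTR lungs and PT lung 6 within their range. The log2 fold change was 1.5 ± 0.63 in SCR against CTR (adjusted p = 0.222, edgeR) and 1.49 ± 0.65 in PT against CTR (adjusted p = 0.621). Without SCR lung 2 the first was 1.02 (adjusted p = 0.404), and with sex as a term the second was 1.18 (adjusted p = 0.733, edgeR), neither with an unadjusted p under 0.05.

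Over the 12 GTPases, all log2 fold changes were above 0 for SCR over CTR (0.42 to 1.5, median 0.80), 11 of 12 for PT over CTR (median 0.39), and 11 of 12 were at or below 0 for PT over SCR (median -0.44). Much of this rested on SCR lung 2. Its summed GTPase level was 4900 CPM, against 535 to 1960 CPM in the other lungs, and its 12 genes lay a median of 2.5 above the CTR mean on the log2 scale. The Ifit, Oas and Mx genes of the same lung lay at -0.18 and the Cxcr3 ligands at -0.65. Its NK and T cell marker sums, 143 and 12.3 CPM, lay within the range of the other lungs, and the part of these cells was not tested. Without SCR lung 2 the GTPase median was 0.14 in SCR against CTR, and in PT against SCR it turned to 0.26. In SCR lung 6 and PT lung 5 all 12 genes were also above the CTR mean (medians 1.08 and 1.29), and in SCR lung 1 all 12 were below it (-1.01).

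The 4 GTPase genes of the wider pathway list that are not among the 46 were looked at after these values were seen. In SCR lung 2, Ifi47 reached 339 CPM and Tgtp2 219 CPM, each the highest of the 15 lungs, whereas Gbp8 (59.3 CPM) and Gbp9 (239 CPM) were lower there than in PT lung 5 (110 and 257 CPM). Tgtp1 and Tgtp2 are near-identical copies, and reads may be assigned to either. Tgtp1 itself measured 18.2, 7.23, 6.77 and 15.7 CPM in CTR, a lowest, median and highest of 2.44, 12.5 and 67.1 in SCR, and 22.6, 35.9, 20, 40 and 14.8 in PT.

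**Figure D4:**
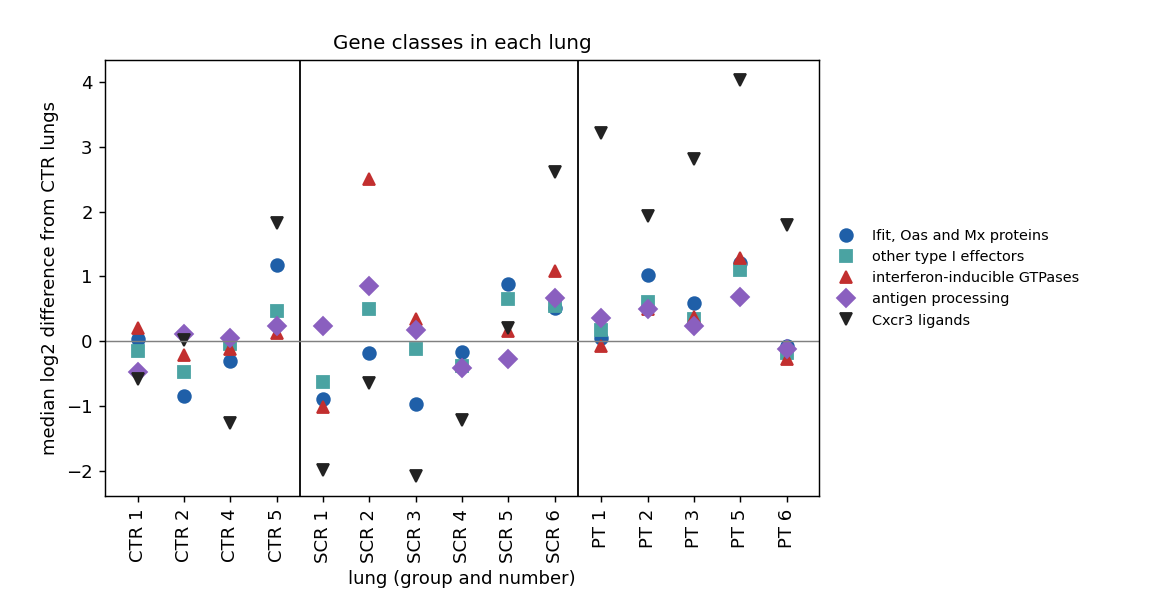
Median log2 difference from the CTR mean over the genes of 5 classes in each lung, where a CTR lung is set against the mean of the other CTR lungs. The x axis gives the 15 lungs by group and number, and each symbol is a class. GTPases and Cxcr3 ligands separate in SCR lung 2 (2.5 and -0.65), while PT lung 5 is above the CTR mean in each class.

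The Ifit, Oas and Mx genes encode antiviral effectors: Ifit proteins bind viral RNA, Oas proteins make an RNase-activating messenger, and Mx proteins are GTPases that trap viral components. None passed the adjusted test, and 1 of 11 (Ifit3b in SCR against CTR) had an unadjusted p under 0.05. Medians of the log2 fold change were 0.02 for SCR over CTR with 6 of 11 above 0, 0.51 for PT over CTR with 11 of 11 above 0, and 0.59 for PT over SCR with 9 of 11 above 0. CTR lung 5 bore on the comparison with controls, since its 11 genes lay a median of 1.17 above the mean of the other CTR lungs. PT lung 5 lay 1.21 above the mean of all CTR lungs, which is a different baseline. CTR lung 5 also had the highest T cell and neutrophil marker sums of the CTR lungs (45.9 and 1060 CPM), whose part was not tested. Without CTR lung 5 the medians against CTR were 0.43 for SCR and 1.07 for PT, and 11 of the 46 ISGs were higher and 1 lower in PT at an unadjusted p under 0.05, where in the same fit 4.66% of all genes were higher and 6.71% lower. Of those higher, only Ifit1, Oas1a and Oas2 belong to this class. Without SCR lung 5 the SCR against CTR median was -0.28, and 11 of the 46 were higher and 2 lower in PT against SCR at this level, where 6.87% of all genes were higher and 6.86% lower. CTR lung 5 and SCR lung 5 had the highest mean log2 CPM of this class in their groups (4.58 and 4.59). Shifts of the class medians in these directions therefore follow from the choice of lung.

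Members of this class differed in which SCR lungs were high. Ifit3 is shown with its upstream window (chr19:34583279-34583528, plus strand, GRCm38.p6), in which capitals mark 2 matches to the reverse complement of GAAANNGAAA, an arrangement that its near copy Ifit3b shares.
Ifit3: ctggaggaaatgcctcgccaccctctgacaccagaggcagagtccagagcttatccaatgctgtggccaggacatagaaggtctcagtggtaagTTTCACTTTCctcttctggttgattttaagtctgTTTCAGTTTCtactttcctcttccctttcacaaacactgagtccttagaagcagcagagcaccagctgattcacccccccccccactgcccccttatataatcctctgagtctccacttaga

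Ifit3 had 50.1, 38.8, 43.9 and 44.6 CPM in the CTR lungs, a lowest, median and highest of 33.4, 57.6 and 88.1 CPM in SCR, and 35.9, 35.8, 66.0, 66.4 and 45.0 CPM in PT. Ifit3b had 22.2, 17.4, 18.1 and 24.7 CPM in CTR, 22.8, 29.3 and 33.8 CPM as the lowest, median and highest in SCR, and 16.7, 22.8, 30, 31.5 and 19.4 CPM in PT. Ifit3 was highest in SCR lungs 1 to 3. For Ifit3b these lungs had 31.1, 32.8 and 33.8 CPM, with PT lung 5 between them, and reads of these near copies cannot be assigned with certainty. The log2 fold change in SCR against CTR was 0.47 ± 0.19 for Ifit3b (adjusted p = 0.204, edgeR) and 0.42 ± 0.27 for Ifit3 (adjusted p = 0.414). With SCR lungs 1 to 3 left out, that of Ifit3b was 0.28 (adjusted p = 0.642). These lungs were also those with high glucocorticoid-response transcripts, whose part was not tested.

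Oasl1, a regulator of Irf7 translation, was lowest in SCR lungs 1 to 3, where Ifit3 was highest, but not low in PT lungs 3 and 5, where Ifit3 came next. It measured 3.28, 1.94, 2.90 and 7.87 CPM in CTR, a lowest, median and highest of 0.949, 1.44 and 6.51 CPM in SCR, and 3.61, 10.6, 3.64, 8.23 and 2.41 CPM in PT. SCR lungs 1 to 4 lay below all CTR lungs, and the PT range contained most of the CTR range. The log2 fold change in PT against SCR was 1.08 ± 0.54 (adjusted p = 0.454, edgeR). Oas3, picked after its values were seen, was at 0.854, 2.12 and 0.867 CPM in SCR lungs 1 to 3 and at 7 to 18.4 CPM in SCR lungs 4 to 6, against 3.73 to 25 CPM in CTR and 8.79 to 27.4 CPM in PT. Its log2 fold change in PT against SCR was 1.21 (adjusted p = 0.551).

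**Figure D5:**
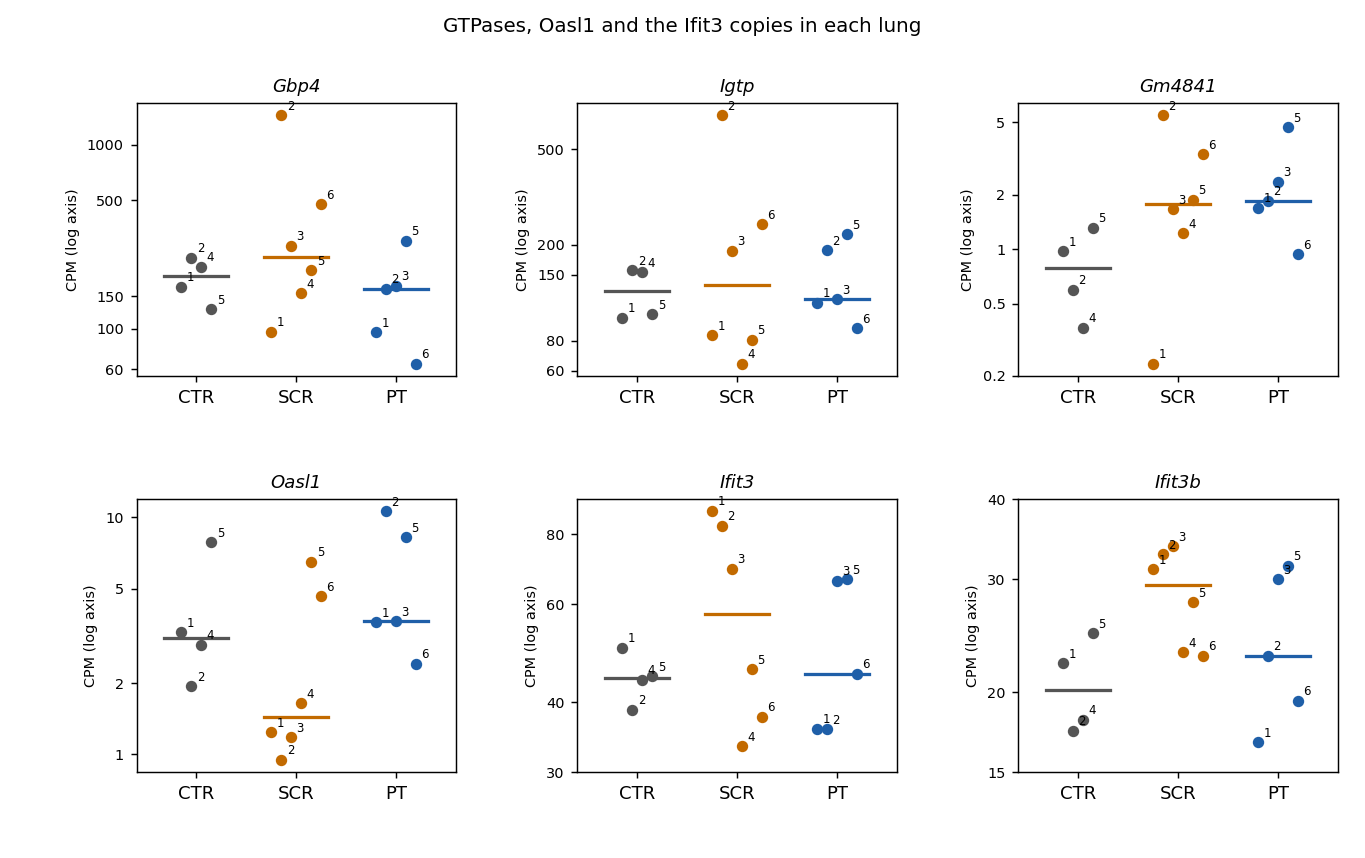
CPM of Gbp4, Igtp, Gm4841, Oasl1, Ifit3 and Ifit3b in each lung (points, numbered by lung; log axis), with the group median as a bar, in the 4 CTR, 6 SCR and 5 PT lungs. SCR lung 2 is the highest of the 15 lungs for Gbp4, Igtp and Gm4841, SCR lungs 1 to 3 are the highest for Ifit3 and the lowest for Oasl1, and for Ifit3b PT lung 5 lies between them.

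Among the 9 other type I effectors, Isg15, a ubiquitin-like modifier, and Xaf1, a pro-apoptotic protein, had an unadjusted p under 0.05 in at least 1 comparison, in opposite directions. The window before Isg15 (chr4:156200819-156201068, minus strand, GRCm38.p6) is shown for the densest cluster among the printed windows, 3 overlapping matches to GAAANNGAAA in capitals.
Isg15: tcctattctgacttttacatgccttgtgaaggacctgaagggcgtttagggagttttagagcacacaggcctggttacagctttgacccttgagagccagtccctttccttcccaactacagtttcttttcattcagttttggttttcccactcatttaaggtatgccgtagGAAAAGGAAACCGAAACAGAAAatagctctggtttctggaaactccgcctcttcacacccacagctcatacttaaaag

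Isg15 stood at 9.47, 9.84, 14 and 18.7 CPM in CTR, at 9.23, 12.8 and 21.4 CPM as the lowest, median and highest in SCR, and at 17.0, 19.7, 21.4, 33.1 and 17.0 CPM in PT. All PT lungs were at or above 17.0 CPM, a level that CTR lung 5 and SCR lungs 5 and 6 also reached. The log2 fold change was 0.73 ± 0.29 in PT against CTR (adjusted p = 0.602, edgeR) and 0.64 ± 0.25 in PT against SCR (adjusted p = 0.338). Without PT lung 5 the first was 0.53 (adjusted p = 0.937), and with sex as a term 0.61 (adjusted p = 0.72), neither with an unadjusted p under 0.05.

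Xaf1 ran the other way, with 77.6, 118, 142 and 38.2 CPM in CTR, a lowest, median and highest of 99.4, 104 and 149 CPM in SCR, and 35.3, 38.9, 81.2, 60.3 and 101 CPM in PT. The SCR lungs were all at or above 99.4 CPM, and 4 of the 5 PT lungs lay below them. The log2 fold change was -0.89 ± 0.31 in PT against SCR (adjusted p = 0.282, edgeR) and -0.57 in PT against CTR (adjusted p = 0.73). It kept an unadjusted p under 0.05 in PT against SCR under all 26 alternatives tried.

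Ifi27l2a, a mitochondrial protein and the ISG with the highest level per length, was at 30.3, 26.1, 19.8 and 86.8 CPM in CTR, at 22, 25.4 and 89.0 CPM as the lowest, median and highest in SCR, and at 38.4, 59.3, 88.1, 104 and 39.1 CPM in PT. CTR lung 5 and SCR lungs 5 and 6 shared the high range with the PT lungs. Its log2 fold change in PT against CTR was 0.69 ± 0.52 (adjusted p = 0.8, edgeR). Medians over the 9 genes were 0.20 and 0.50 for SCR and PT over CTR and 0.25 for PT over SCR. The others were Usp18, which removes Isg15 from proteins, Rsad2 (viperin), which makes a chain-terminating nucleotide, Cmpk2, a mitochondrial nucleotide kinase, Bst2 (tetherin), which holds budding virions, Rtp4 and Ifi44, and none of these reached an unadjusted p under 0.05.

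Of the sensors, Ddx58 (RIG-I), Ifih1 (MDA5) and Dhx58 (LGP2) bind viral RNA in the cytosol, Zbp1 binds Z-form nucleic acids, and Ifi204 and Ifi205 belong to a family of DNA-binding proteins. None had an unadjusted p under 0.05, and the class medians were 0.25 and 0.34 for SCR and PT over CTR and 0.25 for PT over SCR. Ddx58 measured 77.6, 73.3, 84.2 and 76.6 CPM in CTR, a lowest, median and highest of 34.7, 66.8 and 82.1 in SCR, and 62.5, 81.5, 76.1, 82 and 72.4 in PT. Its lowest levels were in SCR lungs 1 and 3, and its log2 fold change in SCR against CTR was -0.30 ± 0.18 (adjusted p = 0.372, edgeR). Ifi204 measured 8.44, 2.24, 4.42 and 16.6 CPM in CTR, a lowest, median and highest of 3.57, 8.21 and 21.8 in SCR, and 12.1, 14.4, 15.5, 19.2 and 10.3 in PT. The PT lungs were all above 3 of the 4 CTR lungs and spanned CTR lung 5, with a log2 fold change of 0.84 ± 0.52 (adjusted p = 0.749).

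Irf7, Irf9 and Stat2 are transcription factors that carry the type I signal and are themselves induced by it, and none of them had an unadjusted p under 0.05. Irf7 was at 21.7, 17.1, 24.1 and 56.9 CPM in CTR, at 13.1, 20.8 and 53.8 CPM as the lowest, median and highest in SCR, and at 31.6, 55.5, 37.3, 51.8 and 24.3 CPM in PT. Within CTR and SCR it was highest in CTR lung 5 and in SCR lungs 5 and 6. Irf9 was steadier, at 66.6, 70.2, 79.6 and 76.5 CPM in CTR, 51.7, 68.8 and 95.4 in SCR, and 81.0, 92.9, 76.7, 98.1 and 66.8 in PT. Stat2 was at 60.6, 50.8, 71.3 and 70.6 CPM in CTR, 34, 60.9 and 81.8 in SCR, and 57.9, 89.7, 61.2, 87.2 and 45.7 in PT. The 3 log2 fold changes in PT against SCR were 0.52, 0.23 and 0.19 (adjusted p = 0.666, 0.63 and 0.797, edgeR), with class medians of -0.08 in SCR against CTR and 0.18 in PT against CTR.

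In antigen processing, Psmb8 and Psmb9 are subunits of the immunoproteasome and Tap1 carries its peptides into the endoplasmic reticulum. Psmb8 had 95.7, 145, 126 and 141 CPM in CTR, a lowest, median and highest of 102, 145 and 184 in SCR, and 151, 164, 158, 203 and 116 in PT. Psmb9 had 60.3, 81.7, 79.3 and 90.6 CPM in CTR, 57.9, 97.3 and 151 in SCR, and 101, 108, 90.3, 119 and 76.9 in PT. For both genes PT lung 6 was the lowest PT lung and CTR lung 1 the lowest CTR lung. The log2 fold changes in PT against CTR were 0.32 ± 0.20 (adjusted p = 0.746, edgeR) and 0.35 ± 0.23 (adjusted p = 0.778), and that of Psmb9 in SCR against CTR was 0.35 (adjusted p = 0.416). Tap1, whose span overlaps that of Psmb9 on the opposite strand, had 0.02 and 0.26, and the strand setting of the counting is not given in the sources used here.

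Upstream of these genes, interferon transcripts were scarce. Of 10 ligand genes, Ifna1, Ifna2, Ifna4, Ifna5, Ifne, Ifnl2 and Ifnl3 had 0 reads in all 15 lungs, which allows a level of up to 0.138 to 0.237 CPM per lung (3 reads), while Ifnb1 and Ifnk had 1 read each. Ifng, the only ligand tested, had 1, 2, 2 and 16 reads in the CTR lungs, 0, 10, 2, 11, 15 and 22 in SCR lungs 1 to 6, and 9, 17, 10, 22 and 11 in the PT lungs. CTR lung 5 lay within the range of the PT lungs, and the log2 fold change of Ifng was 1.78 ± 0.79 in PT against CTR (0.969 ± 0.418 SD against 0.263 ± 0.326 CPM, adjusted p = 0.623, edgeR). In SCR against CTR it was 1.23 ± 0.78 (adjusted p = 0.407). SCR lung 2, with the highest GTPase levels, had 10 reads of Ifng (0.558 CPM). This was close to the 11 reads of SCR lung 4 (0.583 CPM), below SCR lungs 5 and 6, and above CTR lungs 1, 2 and 4. Of the antigen-processing genes, Tap1 and Psmb9 were also highest in SCR lung 2 (156 and 151 CPM), and Psmb8 in PT lung 5 (203 CPM). The part of interferon gamma in these levels was not tested.

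Of 71 further genes of the pathway that are not among the 46, 62 were tested and 0 passed edgeR's adjusted test in any comparison. At an unadjusted p under 0.05, 0 were higher and 5 lower in SCR than in CTR, 4 higher and 1 lower in PT than in CTR, and 10 higher and 1 lower in PT than in SCR. Over all genes tested, 8.58% were higher and 10.2% lower in SCR than in CTR. The shares were 2.93% and 4.73% in PT against CTR, and 6.19% and 5.6% in PT against SCR. Irf1, an early gamma-induced factor, had log2 fold changes of 0.09, 0.16 and 0.08 in these comparisons, and its highest level was in SCR lung 2, at 279 CPM.

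Among receptors and kinases, Ifngr2 had a mean of 78.0 ± 8.18 CPM (SD, n = 5) in PT and 59.5 ± 7.71 CPM (n = 4) in CTR, a log2 fold change of 0.39 (adjusted p = 0.507, edgeR), and Tyk2, a kinase of the type I receptor, one of 0.34 in PT against SCR (adjusted p = 0.397). Socs3, an inhibitor of cytokine signalling, had 36.2, 48.4, 55.2 and 62.6 CPM in CTR, 28.9 to 55.9 CPM in SCR and 81.2, 79.7, 53.7, 84.1 and 66.8 CPM in PT. Its log2 fold change of 0.85 ± 0.18 in PT against SCR had the smallest p of the list (adjusted p = 0.101). Trex1, a nuclease that clears cytosolic DNA, was under 1.5 CPM in every lung and had -1.18 ± 0.32 in PT against SCR (adjusted p = 0.162), with all PT lungs below all SCR lungs. A further entry under its name had no reads, and whether reads of the gene went uncounted between the entries was not tested.

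The adaptors Ticam1 and Myd88 had log2 fold changes of -0.45 in SCR against CTR (adjusted p = 0.15) and 0.40 in PT against SCR (adjusted p = 0.255, both edgeR). Lgals3bp, a secreted glycoprotein, had -0.54 (adjusted p = 0.173) and the class I gene H2-D1 -0.88 (adjusted p = 0.216) in SCR against CTR. H2-D1 was at 876, 725 and 840 CPM in SCR lungs 2, 3 and 6 and at 1830 CPM or more in every other lung. H2-K1, also a class I gene, went the other way, at 2190, 1660 and 2000 CPM in these lungs and 716 to 1870 CPM elsewhere. Its log2 fold change in SCR against CTR was 0.47 (adjusted p = 0.406, edgeR). Whether the assignment of reads between class I genes had a part was not tested.

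The upstream windows of the ISGs were compared with all windows in the RefSeq table, each running from 250 bases before to 50 after a start, on both strands. A window was found for 33 of the 46, and 21 of these (63.6%) matched GAAANNGAAA, as did 3.99% of 27025 genes in the table. TTCNNNGAA was matched by 9 of 33 (27.3%) against 9.55% of genes, and both by 7 (21.2%) against 0.614%. Of the Ifit, Oas and Mx genes with a window, 5 of 8 matched the first and 2 of 8 the second. The sensors matched the first in 3 of 3, and the antigen-processing genes in 0 of 3. Dhx58, Gbp4, Gbp6, Gm4841, Ifi204, Ifi27l2a, Iigp1, Mx1, Mx2, Oas2, Rtp4, Usp18 and Zbp1 were the other members. A match describes letters in this window and does not show that a factor binds there.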

How the data were processed

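RNA from 15 lungs (CTR, n = 4; SCR, labelled MC, n = 6; PT, labelled TS, n = 5) was analysed. According to the methods and the submitters' notes, the authors processed single-end reads with cutadapt 1.15, Bowtie2 2.3.3.1, STAR 2.5.2b (GRCm38), SAMtools 1.5 and featureCounts 1.5.3. The deposited counts are raw reads per Ensembl gene, with the gene length beside them. The deposited FPKM values were normalized by the authors within and between samples, and served only in an alternative test.

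Reads were present for 27075 genes, of which 15870 were kept by filterByExpr. A quasi-likelihood model (edgeR 4.0.16, R 4.3.3, TMM, robust dispersion, no covariate) was fitted to all 15 lungs and p-values adjusted over all genes tested. SEs were derived from the test statistic. CPM and RPKM use TMM-scaled library sizes, and log2 CPM a prior count of 2. Tried as alternatives were the likelihood ratio test of edgeR, DESeq2 1.42.0, other normalizations, no filter, limma 3.58.1 on log2(FPKM + 0.5 or 0.1), sex or replicate number as a term, only the groups compared, and each lung, or SCR lungs 1 to 3, left out. The procedure was tested on simulated data. Whether lungs came from separate litters is not stated, so it is not known how independent they are. The p-values set group differences against the spread between these lungs within groups. Intervals and limits from reads cover counting error only.

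The members and lists were chosen with earlier results of these data known. Values by lung (for SCR the lowest, median and highest) are given for members past the adjusted test (none), the 2 members of each class with the smallest p, the member of each class with the highest RPKM, and Ifit3 with Ifit3b. Other pathway genes were named as the 2 with the smallest p per list, with Irf1, and 1 gene that the rule also names is not reported here. Upstream windows are RefSeq's (GRCm38.p6). Figures were drawn with matplotlib 3.10.9 (Python 3.11.15). No set test was run, and protein and staining data were not analysed here.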

Additional observations from a re-analysis of the deposited data

Results flagged for a closer look

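In CTR lung 1 the mean log2 CPM of Psmb8, Psmb9 and Tap1, the antigen-processing genes, was 6.21, whereas the other 3 CTR lungs lay between 6.65 and 6.72. The gap to the nearest lung, divided by the range of the group, was 0.861, above Dixon's 95% critical value for 4 samples. It was the only such case among 75 groups of values checked, and chance alone puts about 5% of groups past this limit.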

How the results depend on the processing

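No ISG passed the adjusted test in the fit of all lungs, so there was no called ISG that could reverse among the 26 alternatives. Some class medians changed sign when a lung was left out, as given above. The count of ISGs past the adjusted test in PT against SCR was 0 with all lungs and 0 to 2 with lungs left out. The 2 were Cxcl9 and Cxcl10 without SCR lung 6, the SCR lung in which both were highest. The cause was not tested. In SCR against CTR and PT against CTR it was 0 under every alternative. At an unadjusted p under 0.05, ISGs higher numbered 0 to 8, 2 to 11 and 1 to 11 in SCR against CTR, PT against CTR and PT against SCR, and ISGs lower 0 to 1, 0 to 1 and 1 to 2. In the fit of all lungs, 8.58%, 2.93% and 6.19% of all genes were higher and 10.2%, 4.73% and 5.6% lower. These shares differed between alternatives. Cxcl9 and Cxcl10 kept such a p in PT against CTR under all 26, at log2 fold changes of 2.20 to 4.13 and 1.66 to 2.96. Calls over all genes depended on the tool: past the adjusted test, DESeq2 had 562, 17 and 236 genes, the likelihood ratio test 348, 11 and 183, and limma on FPKM 2, 3 and 7, against 18, 0 and 6. Replicate numbers do not pair the lungs, since 4 of 12 same-numbered pairs had deviations correlated above 0.1 (range -0.3 to 0.38). With the number as a replicate block, 0 of 46 ISGs passed the adjusted test in each comparison and 1, 4 and 9 had an unadjusted p under 0.05, with 0, 0 and 4 of all genes past the adjusted test. Few reads lay behind some values: the lowest counts in a lung were 6 for Cxcl9, 4 for Cxcl10, 3 for Gm4841 and 0 for Ifng. Counting error was not separated from the spread between lungs.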
